A study of Mus musculus with 36 samples.

Results

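The genes of cholesterol and fatty acid synthesis were followed across 3 cell populations sorted from muscle of young transgenic mice. The set holds 32 genes, chosen by their known roles and found in the deposited count table by Ensembl identifier, out of 52636 genes listed there. It was split by role into 7 genes of the mevalonate arm, 11 genes from squalene to cholesterol, 6 genes of SREBP control and sterol transport, and 8 genes of fatty acid synthesis, elongation and desaturation. All 32 genes passed the filter on low counts, as did 15330 genes in all.

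The study sorted cells from skeletal muscle (diaphragm, pectoralis, forelimb and hindlimb) of S100β-GFP;NG2-dsRed mice, which its methods place at P15 to P21, and sequenced their RNA in bulk. In these mice the S100b promoter drives GFP and the Cspg4 (NG2) promoter drives dsRed, and every group carried both transgenes and no other treatment. S100β-GFP+;NG2-dsRed+ cells were taken as perisynaptic Schwann cells (PSCs), the glia that cap the neuromuscular junction, S100β-GFP+ cells as all other Schwann cells, and NG2-dsRed+ cells as a mixed group that holds pericytes and precursor cells. The count table covers 27 libraries, 9 of PSCs, 8 of S100β-GFP+ cells and 10 of NG2-dsRed+ cells, each from a single mouse. The table holds 1 S100β-GFP+ library more than the study kept for its own comparisons, and the one it left out is not named. A colour gate is a limit on each group as a model of 1 cell type, because any cell in which a promoter is active enters the gate.

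Total counts per library lay between 5334916 and 9592875 in PSCs, between 5221655 and 9411399 in the S100β-GFP+ group and between 5712256 and 7918320 in the NG2-dsRed+ group. Levels are given as CPM (counts scaled to a base of 1e+06) on library sizes scaled by the trimmed mean of M-values, and as CPM per kilobase of exon where different genes are compared. Summed CPM of 5 Schwann cell lineage markers (S100b, Sox10, Erbb3, Foxd3 and Cdh19) was 1388 to 2021 in PSCs, 31.0 to 144.5 in S100β-GFP+ libraries and 15.2 to 40.6 in NG2-dsRed+ libraries. The S100β-GFP+ libraries also held 222 to 1456 summed CPM of 5 macrophage markers, against at most 11.5 in PSCs and 15.2 in NG2-dsRed+ cells, and 9625 to 21010 of 5 fibroblast markers, against 417.0 to 1738 and 1244 to 11970. Summed CPM of 7 myelin genes was 911 to 2962 in the S100β-GFP+ libraries, so these libraries carried myelinating Schwann cell RNA together with macrophage and fibroblast RNA. The label "Schwann cells" therefore covers only part of what that gate contained, and the group is called by its reporter, S100β-GFP+, below.

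PSC library 18 stood apart from the other 8 PSC libraries. It had counts on 14616 genes, against 20203 to 22533 in the others. It held the highest PSC value for 12 of the 32 genes and the lowest for 7. Extreme values gathered in other libraries too, with S100β-GFP+ library 27 the lowest of its group for 13 genes and the highest for 0. S100β-GFP+ libraries 14, 17 and 22 had counts on 25890 to 38568 genes, against 19669 to 23292 in the other 5 libraries of that group. Genes whose calls changed without PSC library 18, or without S100β-GFP+ libraries 14, 17 and 22 together, are given with that fit's value where described. The transcripts Lars2, Gm23935 and Gm15564 together took 3.64% to 36.6% of counts in PSCs, 19.5% to 39.1% in S100β-GFP+ cells and 12.5% to 40.0% in NG2-dsRed+ cells. In bulk RNA, fewer cells of a type and less RNA per cell cannot be told apart.

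Cholesterol is built from acetyl-CoA through the mevalonate arm to farnesyl diphosphate, then through squalene and lanosterol to the finished sterol. Fatty acids are built from malonyl-CoA by fatty acid synthase, and are then elongated and desaturated. SREBP transcription factors control both pathways: SCAP escorts them from the endoplasmic reticulum to the Golgi when sterol is low, and INSIG proteins hold SCAP back when sterol is high. Schwann cells are known for a heavy use of both pathways, since myelin is rich in cholesterol and long-chain lipid.

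RefSeq promoter windows (GRCm38.p6, 250 bases before to 50 bases after each annotated start) were matched for 25 of the 32 genes, and were not matched for Fads1, Fdft1, Fdps, Scd1, Scd2, Sqle and Stard4. They were searched on both strands for the letters of 4 motifs: a sterol response element (SRE, TCACNCCAC), the E-box CACGTG, the NF-Y box CCAAT and the GC box GGGCGG. SREBPs bind SREs and E-boxes, and NF-Y and Sp1 are known partners that bind CCAAT and GC boxes. The NF-Y box occurred in 20 of the 25 genes (80%), against 41.1% of all 27025 genes with a window and 37.4% of all 32851 windows. The GC box occurred in 21 genes (84%), against 38.2% of genes and 35.7% of windows. The E-box occurred in 5 genes, Dhcr7, Hsd17b7, Insig1, Sc5d and Scap (20%), against 8.09% of genes and 7.15% of windows. The SRE letters occurred in 1 gene, Hmgcs1 (4%), against 1.44% of genes and 1.24% of windows. The only overlap between different motifs was an NF-Y box with a GC box in Elovl1. A match is a description of the letters and not evidence of binding.

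The 150 bases just before the annotated start are printed for 7 genes, 5 of them sterol pathway genes with different motif content, Fasn for fatty acids, and Pmvk, a gene that was higher in PSCs. Capitals mark SRE, E-box and NF-Y box letters on either strand, so that ATTGG is CCAAT read on the other strand, and GC boxes are left in lower case. Each sequence is written 5′ to 3′ along the gene.
Hmgcs1, chr13:119690201-119690350, plus strand: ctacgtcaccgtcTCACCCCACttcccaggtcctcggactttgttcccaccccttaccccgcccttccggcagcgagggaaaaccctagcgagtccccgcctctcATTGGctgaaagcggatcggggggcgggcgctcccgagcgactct
Mvd, chr8:122443423-122443572, minus strand: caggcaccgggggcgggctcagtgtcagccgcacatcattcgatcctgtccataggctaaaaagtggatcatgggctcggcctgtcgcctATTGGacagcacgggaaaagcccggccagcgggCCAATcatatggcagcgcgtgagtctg
Lss, chr10:76531455-76531604, plus strand: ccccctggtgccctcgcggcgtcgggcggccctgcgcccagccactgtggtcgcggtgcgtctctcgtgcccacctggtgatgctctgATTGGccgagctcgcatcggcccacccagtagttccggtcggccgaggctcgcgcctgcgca
Sc5d, chr9:42264301-42264450, minus strand: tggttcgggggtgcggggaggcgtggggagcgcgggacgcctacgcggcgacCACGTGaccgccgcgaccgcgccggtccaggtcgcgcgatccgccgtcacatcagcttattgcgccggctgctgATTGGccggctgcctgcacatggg
Insig1, chr5:28071262-28071411, plus strand: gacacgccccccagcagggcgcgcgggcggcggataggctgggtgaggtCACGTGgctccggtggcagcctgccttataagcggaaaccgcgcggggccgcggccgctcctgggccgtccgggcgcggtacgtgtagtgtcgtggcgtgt
Fasn, chr11:120824548-120824697, minus strand: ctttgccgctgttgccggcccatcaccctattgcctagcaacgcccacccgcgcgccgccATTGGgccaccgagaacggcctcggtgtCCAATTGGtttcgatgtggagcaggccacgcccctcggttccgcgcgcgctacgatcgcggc
Pmvk, chr3:89454391-89454540, plus strand: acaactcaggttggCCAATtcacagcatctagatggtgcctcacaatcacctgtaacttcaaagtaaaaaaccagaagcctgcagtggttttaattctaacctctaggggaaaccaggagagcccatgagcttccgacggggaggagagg
Hmgcs1 shows the SRE letters and 1 NF-Y box, Mvd shows 2 NF-Y boxes, and Sc5d joins an E-box to an NF-Y box. Fasn shows 3 NF-Y boxes, of which a forward and a reverse copy overlap. Pmvk has 2 annotated starts, and the upstream one is printed.

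Over all 32 genes, PSCs and S100β-GFP+ cells did not differ in 1 direction as a block. Against NG2-dsRed+ cells, most of the genes that passed were higher in both. In PSCs against S100β-GFP+ cells 7 genes passed an adjusted p of 0.05 in edgeR's quasi-likelihood test (21.9%), against 47.0% of all genes tested, with 3 higher (22.9% of all genes were higher) and 4 lower (24.1% of all genes). In PSCs against NG2-dsRed+ cells 12 genes passed (37.5%), against 44.0% of all genes, with 8 higher (20.9% of all genes) and 4 lower (23.1%). With the share of the 3 abundant transcripts as a term in the fit, 16 genes passed, 13 higher and 3 lower. In S100β-GFP+ against NG2-dsRed+ cells 11 genes passed (34.4%), against 33.3% of all genes, with 10 higher (18.1%) and 1 lower (15.2%). Leaving out single S100β-GFP+ libraries moved that count between 9 and 15 genes. Median log2 fold changes of the 32 genes were -0.04, 0.37 and 0.36, against 0.04, 0.02 and -0.02 over all genes. The 3 comparisons share libraries and are not independent of each other.

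**Figure D1:**
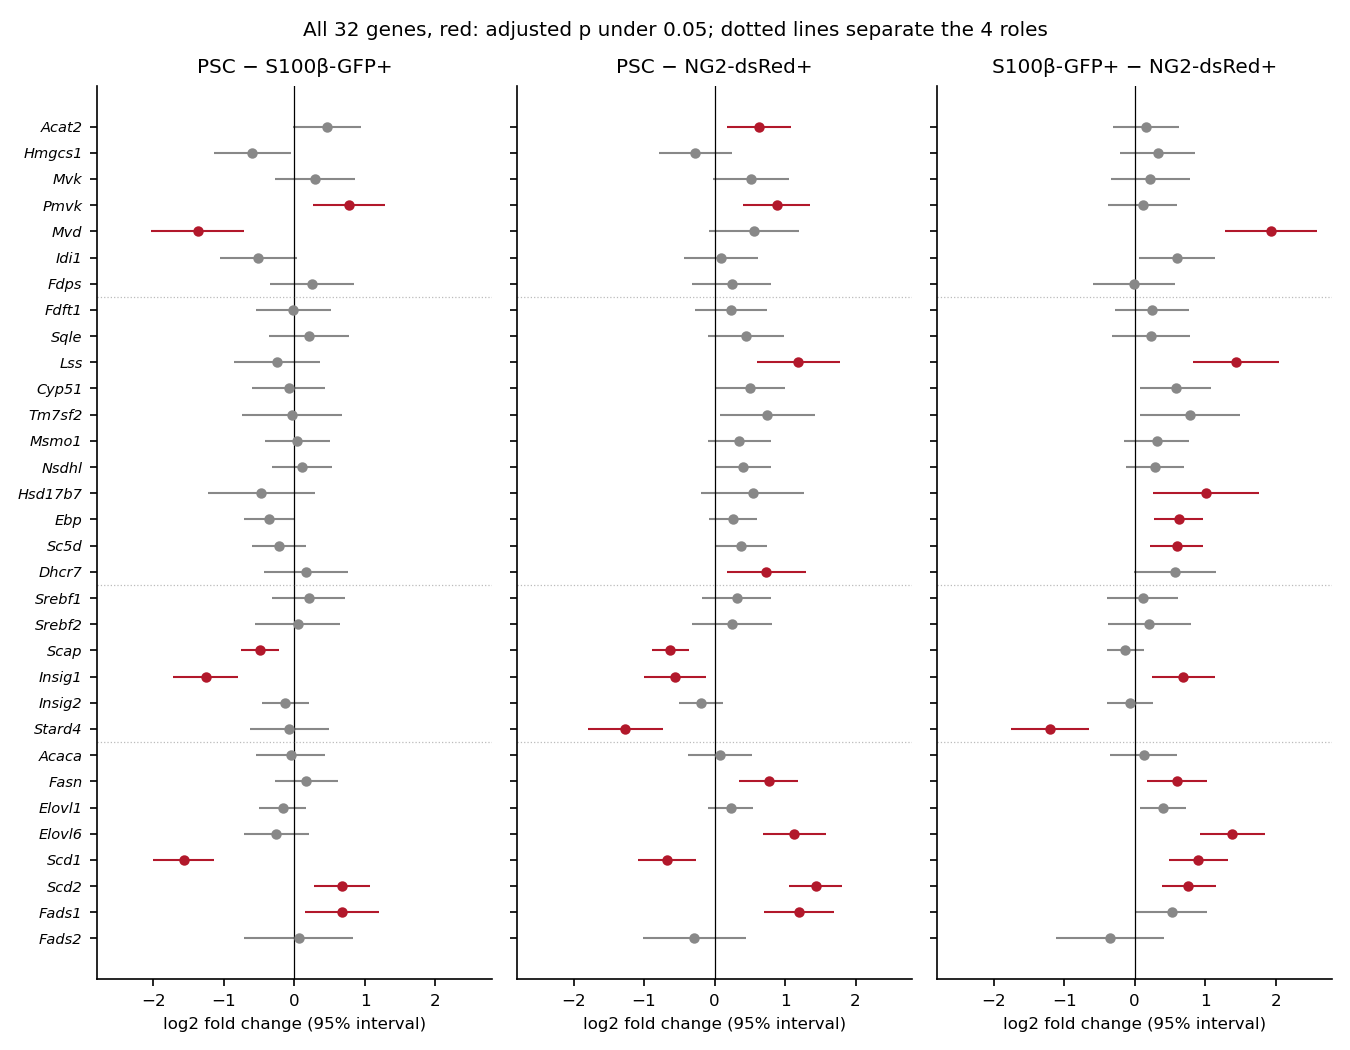
Log2 fold change of each of the 32 genes (rows, grouped by role) in the 3 comparisons, with 95% intervals from edgeR. Red points passed an adjusted p of 0.05, which was 7, 12 and 11 genes from left to right, and the 11 genes from Fdft1 to Dhcr7 are all grey in the PSC against S100β-GFP+ panel.

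In all, 16 of 32 genes passed in none of the comparisons: Hmgcs1, Mvk, Idi1, Fdps, Fdft1, Sqle, Cyp51, Tm7sf2, Msmo1, Nsdhl, Srebf1, Srebf2, Insig2, Acaca, Elovl1 and Fads2. Pmvk, Scd2 and Fads1 were higher in PSCs than in both other groups, 3 of 32 genes against 13.9% of all genes. Scap, Insig1 and Scd1 were lower in PSCs than in both, 3 of 32 against 14.4% of all genes. Groups with no overlap between libraries were few. Against S100β-GFP+ cells, 0 genes had every PSC library above (5.24% of all genes) and 2 had every PSC library below (10.3%), and against NG2-dsRed+ cells there was 1 gene above (5.08%) and 1 below (8.83%). For S100β-GFP+ against NG2-dsRed+ cells there were 2 genes above (7.21%) and 0 below (4.38%).

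The summed level of each role is given beside these counts. The 8 fatty acid genes summed to 583.9 ± 111.2 CPM over the 9 PSC libraries (mean ± SD), to 503.6 ± 122.2 over the 8 from S100β-GFP+ cells and to 321.5 ± 37.8 over the 10 from NG2-dsRed+ cells, and every PSC library lay above every NG2-dsRed+ library. The 18 enzymes of cholesterol synthesis summed to 306.3 ± 48.6, 332.2 ± 76.6 and 240.8 ± 54.5 CPM, with overlapping libraries. The 6 control and transport genes summed to 198.7 ± 60.6, 220.0 ± 53.2 and 223.3 ± 49.97 CPM. These sums are descriptions and were not tested. Scd2 alone supplied a mean of 292.8, 183.7 and 108.1 CPM of the fatty acid sum in the 3 groups. Its gap between PSCs and S100β-GFP+ cells was larger than that of the whole sum, so the order of those 2 groups rested on Scd2.

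**Figure D2:**
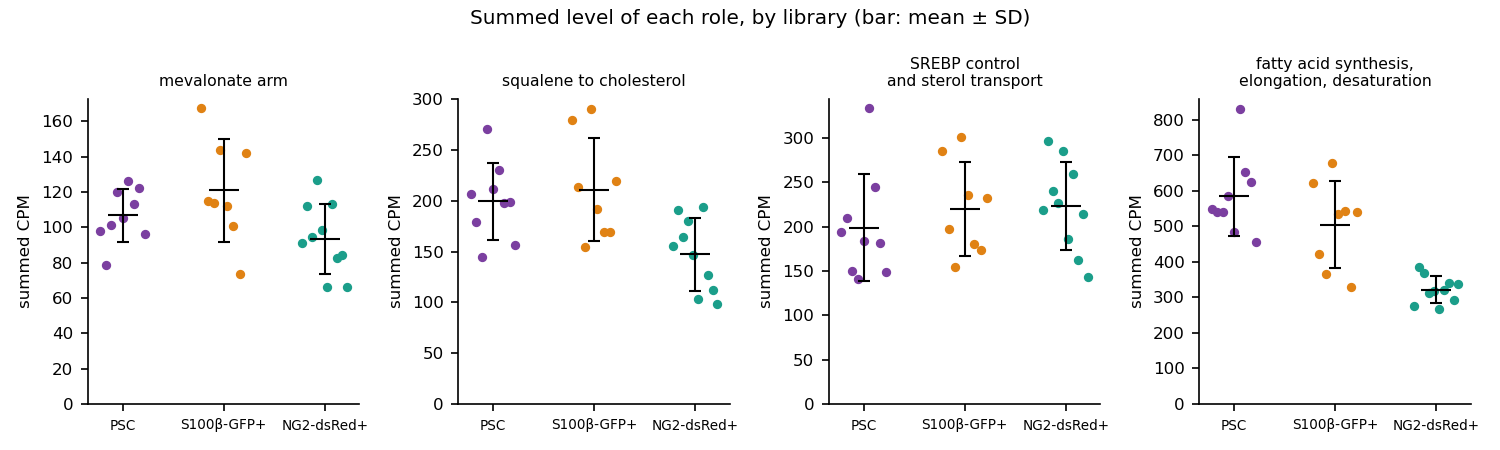
Summed CPM of the genes of each role in every library (points), with the mean and SD (bars). The fatty acid panel shows PSC libraries at 454.2 to 829.9 CPM, above all NG2-dsRed+ libraries at 268.1 to 385.2 CPM, while the other 3 panels overlap.

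In the mevalonate arm, PSCs were higher for Pmvk and lower for Mvd, 2 enzymes that act in adjacent steps. Mvd (diphosphomevalonate decarboxylase, chr8:122433601-122443422, minus strand, GRCm38) was at 1.40, 5.79 and 6.87 CPM in PSCs (lowest, median and highest), at 6.91, 11.9 and 20.8 in S100β-GFP+ cells and at 0.993, 3.52 and 4.63 in NG2-dsRed+ cells. All 9 PSC libraries lay below all 8 S100β-GFP+ libraries, and the S100β-GFP+ libraries lay above all 10 NG2-dsRed+ libraries. The log2 fold change was -1.37 ± 0.32 (SE) for PSCs against S100β-GFP+ cells (edgeR adjusted p = 0.000871) and 1.94 ± 0.32 for S100β-GFP+ against NG2-dsRed+ cells (edgeR adjusted p = 1.8e-05). The step before it is run by Pmvk (phosphomevalonate kinase), which was at 11.0, 16.4 and 30.7 CPM in PSCs, at 7.23, 9.11 and 23.5 in S100β-GFP+ cells and at 5.08, 9.56 and 16.1 in NG2-dsRed+ cells. The groups overlapped, with S100β-GFP+ library 11 far above the rest of its group. Pmvk was higher in PSCs by 0.77 ± 0.25 against S100β-GFP+ cells (edgeR adjusted p = 0.0122) and by 0.88 ± 0.23 against NG2-dsRed+ cells (edgeR adjusted p = 0.00273) on the log2 scale. The first of these calls was lost without S100β-GFP+ libraries 14, 17 and 22 (0.61, edgeR adjusted p = 0.09). It was also lost with the share of the 3 abundant transcripts as a term (0.53, edgeR adjusted p = 0.0641).

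Acat2, the cytosolic thiolase at the start of the arm, was at 7.66 to 24.7 CPM in PSCs and 4.82 to 10.7 in NG2-dsRed+ cells, with overlap. It was higher in PSCs than in NG2-dsRed+ cells by 0.63 ± 0.22 on the log2 scale (edgeR adjusted p = 0.0213). Hmgcs1, the synthase that makes HMG-CoA, was the most abundant member of the arm per length in S100β-GFP+ cells, at 12.4 ± 4.25 CPM per kilobase. Its level was 6.66, 38.6 and 54.3 CPM in PSCs, 23.7, 56.8 and 83.6 in S100β-GFP+ cells and 27.5, 46.0 and 60.9 in NG2-dsRed+ cells. The difference of PSCs from S100β-GFP+ cells was -0.60 (95% interval -1.14 to -0.06, edgeR adjusted p = 0.0648), and without S100β-GFP+ library 27 it was -0.72 with an edgeR adjusted p of 0.0246. In DESeq2's Wald test it was -0.62 (adjusted p = 0.049). Mvk, Idi1 and Fdps, which phosphorylate mevalonate, isomerise isopentenyl diphosphate and build farnesyl diphosphate, passed in none. Of Fdps exon bases, 26.7% are shared with Gm43738 on the same strand, and of Hmgcs1 exon bases 12.1% lie opposite Gm48342. The strand setting of the counting was not given in the sources used here.

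**Figure D3:**
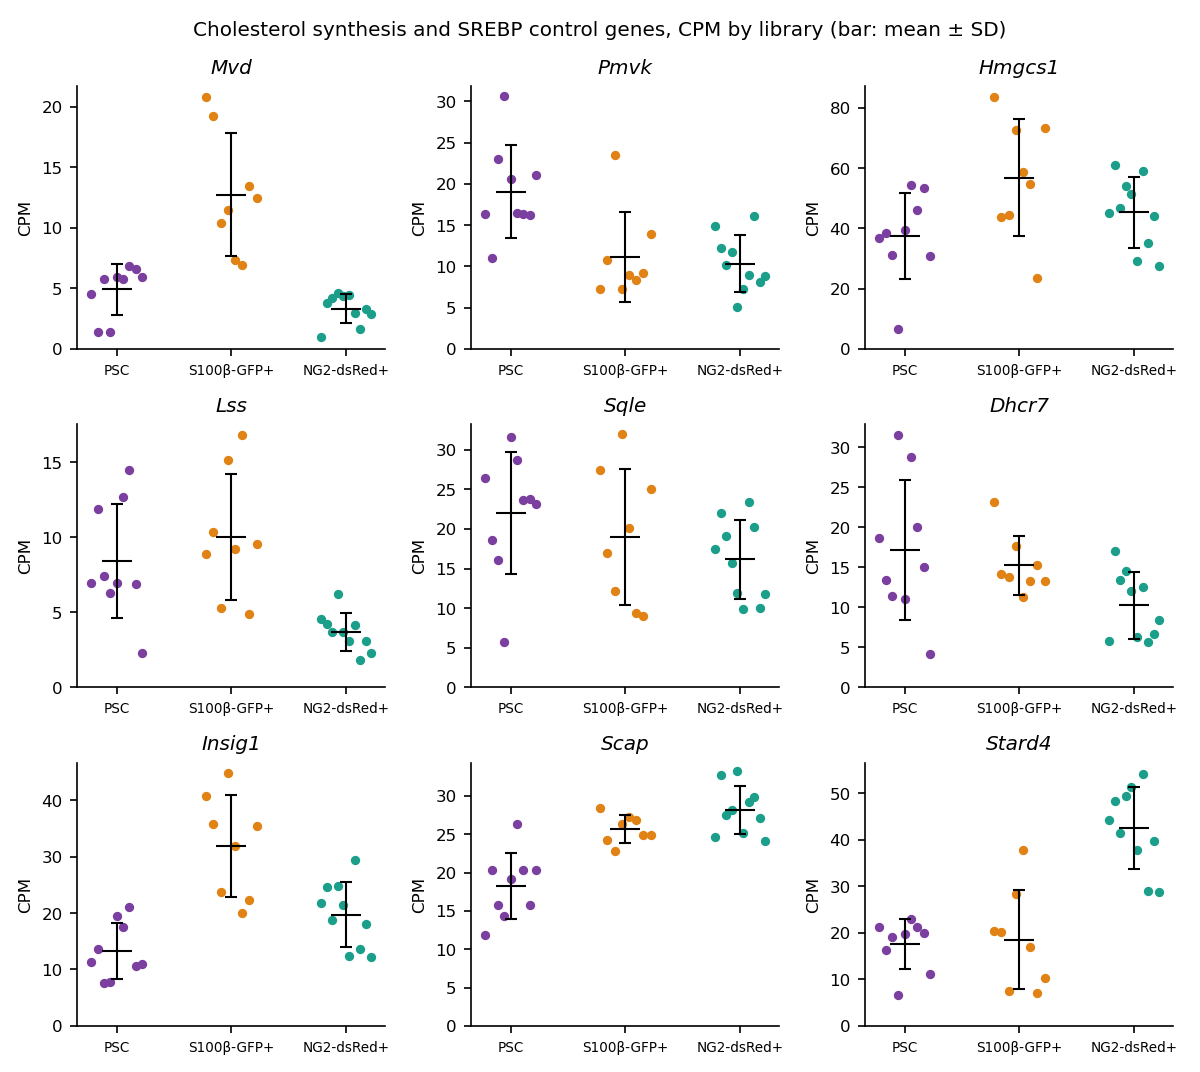
CPM of 9 cholesterol synthesis and SREBP control genes in every library, with the mean and SD (bars). Mvd and Insig1 are highest in the S100β-GFP+ libraries, Stard4 is highest in the NG2-dsRed+ libraries, and Scap is lowest in PSCs, where library values run from 11.9 to 26.3 CPM.

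Between squalene and cholesterol, no gene of 11 passed in PSCs against S100β-GFP+ cells. Fitted log2 fold changes there ran from -0.47 to 0.21, the lowest edgeR adjusted p was 0.0875, and the 95% intervals together spanned -1.23 (Hsd17b7) to 0.78 (Sqle). A p above the threshold does not show that the levels were equal. Against NG2-dsRed+ cells all 11 fitted values were above 0 in PSCs and in S100β-GFP+ cells, with 2 and 4 genes past the test.

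Lss (lanosterol synthase, which closes the sterol rings) showed the largest difference of this stretch. It was at 2.32, 6.98 and 14.4 CPM in PSCs, 4.88, 9.38 and 16.8 in S100β-GFP+ cells and 1.82, 3.68 and 6.23 in NG2-dsRed+ cells. The NG2-dsRed+ libraries were low, with some overlap at the bottom of the other groups. The log2 fold change against NG2-dsRed+ cells was 1.19 ± 0.29 in PSCs (edgeR adjusted p = 0.00123) and 1.44 ± 0.30 in S100β-GFP+ cells (edgeR adjusted p = 0.000312).

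Dhcr7, which makes cholesterol from its last precursor on the Kandutsch-Russell route, was at 4.21, 15.0 and 31.5 CPM in PSCs and 5.63, 10.2 and 17.0 in NG2-dsRed+ cells. It was higher in PSCs by 0.74 ± 0.28 on the log2 scale (edgeR adjusted p = 0.0311), with overlapping libraries. Ebp, the sterol isomerase, and Sc5d, the C5 desaturase, were higher in S100β-GFP+ than in NG2-dsRed+ cells by 0.63 ± 0.17 and 0.60 ± 0.18 on the log2 scale (edgeR adjusted p = 0.00442 and 0.0118). The Sc5d call was lost without S100β-GFP+ libraries 14, 17 and 22 (0.39, edgeR adjusted p = 0.132). Ebp was among the most abundant of the 32 genes per length, at 12.5 ± 4.14 CPM per kilobase in PSCs, 16.1 ± 4.36 in the S100β-GFP+ group and 10.4 ± 1.30 in the NG2-dsRed+ group. The difference of PSCs from S100β-GFP+ cells in Ebp was -0.36 on the log2 scale with all libraries (edgeR adjusted p = 0.0875). Without PSC library 18, at 52.2 CPM the highest of its group, it was -0.47 (edgeR adjusted p = 0.0094).

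Hsd17b7, the 3-keto reductase, ran from 6.38 to 24.4 CPM in S100β-GFP+ cells and from 0.463 to 11.8 in NG2-dsRed+ cells, and was higher by 1.01 ± 0.37 on the log2 scale (edgeR adjusted p = 0.0333). That call was lost without S100β-GFP+ library 1, 14 or 27, with edgeR adjusted p values of 0.075, 0.107 and 0.0579, and without libraries 14, 17 and 22 together (0.84, edgeR adjusted p = 0.123). Squalene synthase Fdft1, squalene epoxidase Sqle, and the demethylation and reduction enzymes Cyp51, Tm7sf2, Msmo1 and Nsdhl passed in none, at medians of 1.48 to 33.0 CPM over the 3 groups. Of Fdft1 exon bases, 18.3% lie opposite Ctsb, and 12.1% of Tm7sf2 exon bases are shared with Vps51 on the same strand. Without PSC library 18, 3 more enzymes were higher in PSCs than in NG2-dsRed+ cells: Mvd by 0.77, Sqle by 0.65 and Tm7sf2 by 0.89 on the log2 scale (edgeR adjusted p = 0.0301, 0.0217 and 0.023). In the same fit, which also estimates the spread without that library, Cyp51 and Tm7sf2 were higher in S100β-GFP+ than in NG2-dsRed+ cells by 0.61 and 0.81 (edgeR adjusted p = 0.0484 and 0.0497). For PSCs against NG2-dsRed+ cells, Tm7sf2 stayed above the threshold in 3 of 8 alternatives, and Sqle and Nsdhl in 6 of 8. Tm7sf2 also passed there in DESeq2's Wald test (0.81, adjusted p = 0.0277) and in limma-voom (0.73, adjusted p = 0.0442). With DESeq2 size factors in edgeR it was 0.80 (edgeR adjusted p = 0.0494). With the share of the 3 abundant transcripts as a term it was 1.03 (edgeR adjusted p = 0.0191).

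Among the SREBP control genes, neither transcription factor gene passed the test in any comparison, and their regulators Insig1 and Scap did. Srebf1 was at 27.3, 44.4 and 96.9 CPM in PSCs, 26.2, 41.0 and 65.3 in S100β-GFP+ cells and 20.2, 42.2 and 63.3 in NG2-dsRed+ cells. Srebf2 was at 34.2, 71.5 and 142.8 CPM in PSCs, 35.0, 65.2 and 107.1 in S100β-GFP+ cells and 22.0, 62.4 and 102.5 in NG2-dsRed+ cells. Their fitted differences were between 0.05 and 0.31 on the log2 scale, with intervals between -0.56 and 0.82. When the fit also held a term for what these 3 abundant transcripts took (Lars2, Gm23935, Gm15564), Srebf1 was higher in PSCs by 0.69 against S100β-GFP+ cells and by 0.73 against NG2-dsRed+ cells, and Srebf2 by 0.67 against NG2-dsRed+ cells (edgeR adjusted p = 0.000882, 0.000204 and 0.0212).

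Insig1, a sterol-regulated gene whose protein retains SCAP in the endoplasmic reticulum, was at 7.62, 11.3 and 21.0 CPM in PSCs, 20.1, 33.7 and 44.8 in S100β-GFP+ cells and 12.3, 20.1 and 29.4 in NG2-dsRed+ cells. Of the PSC libraries, only 31, at 21.0 CPM, exceeded the lowest S100β-GFP+ library. The difference of PSCs from S100β-GFP+ cells was -1.26 ± 0.23 on the log2 scale (edgeR adjusted p = 3.5e-05), and S100β-GFP+ cells were above NG2-dsRed+ cells by 0.69 ± 0.22 (edgeR adjusted p = 0.0143). PSCs were below NG2-dsRed+ cells by -0.56 ± 0.21 (edgeR adjusted p = 0.0335), a call lost in 4 of 8 alternatives. These were the fits without PSC library 18 (-0.42, edgeR adjusted p = 0.0963), with no filter (-0.56, 0.0764), with only the groups compared (-0.52, 0.0618) and with the share of the 3 abundant transcripts as a term (-0.41, 0.139). Its paralog Insig2 passed in none, and ran from 17.8 to 45.0 CPM over all 27 libraries. The Insig2 level per length was 2.17 times that of Insig1 in the median PSC library, 0.882 times in the median S100β-GFP+ library and 1.46 times in the median NG2-dsRed+ library.

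Scap was at 11.9, 19.2 and 26.3 CPM in PSCs, 22.9, 25.6 and 28.4 in S100β-GFP+ cells and 24.1, 27.8 and 33.3 in NG2-dsRed+ cells. PSCs were lower than S100β-GFP+ cells by -0.49 ± 0.13 (edgeR adjusted p = 0.00284) and lower than NG2-dsRed+ cells by -0.63 ± 0.13 (edgeR adjusted p = 0.000152) on the log2 scale. A single PSC library overlapped the other groups. Of Scap exon bases, 13.2% lie opposite 5830462I19Rik.

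Stard4, a carrier of sterol between membranes, was the gene of the set that passed as lower in both other groups than in NG2-dsRed+ cells. It was at 6.66, 19.7 and 23.0 CPM in PSCs, 6.97, 18.6 and 37.8 in S100β-GFP+ cells and 28.8, 42.9 and 54.2 in NG2-dsRed+ cells. All PSC libraries lay below all NG2-dsRed+ libraries, whereas 1 S100β-GFP+ library (17) reached into their range. The log2 fold change was -1.27 ± 0.26 for PSCs (edgeR adjusted p = 0.000204) and -1.20 ± 0.27 for S100β-GFP+ cells (edgeR adjusted p = 0.000878), both against NG2-dsRed+ cells. Summed CPM of 4 endothelial markers was 1084 to 2525 in the NG2-dsRed+ libraries and 72.9 to 458.0 in PSCs, and in the S100β-GFP+ libraries its median was 86.3 and its highest value, 1847, was in library 17. Library 17 also had the highest S100β-GFP+ sum of 8 pericyte and smooth muscle markers, at 1619 CPM, against 7124 to 15610 in NG2-dsRed+ libraries and 782 to 1403 in PSCs. That list holds Cspg4, the gene whose promoter drives dsRed, which made up 689.3 of the mean sum of 1097 CPM in PSCs. The part of endothelial, pericyte and smooth muscle cells in the Stard4 result was not tested.

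The 2 stearoyl-CoA desaturases, which put the first double bond into saturated fatty acids, went in opposite directions in PSCs. Scd2 (chr19:44293674-44306864, plus strand, GRCm38) was at 161.5, 298.2 and 453.8 CPM in PSCs, 101.6, 197.2 and 263.2 in S100β-GFP+ cells and 90.2, 107.9 and 140.7 in NG2-dsRed+ cells. All PSC libraries lay above all NG2-dsRed+ libraries and 7 of them lay above every S100β-GFP+ library. Scd2 was the most abundant of the 32 genes per length in PSCs, at 53.6 ± 14.1 CPM per kilobase. It was higher in PSCs by 0.67 ± 0.19 against S100β-GFP+ cells (edgeR adjusted p = 0.00507) and by 1.44 ± 0.18 against NG2-dsRed+ cells (edgeR adjusted p = 1.86e-07) on the log2 scale, and S100β-GFP+ cells were above NG2-dsRed+ cells by 0.76 ± 0.19 (edgeR adjusted p = 0.00179). Without S100β-GFP+ libraries 14, 17 and 22 the last of these was 0.52 (edgeR adjusted p = 0.06).

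Scd1 (chr19:44394455-44407879, minus strand, GRCm38), which lies close to Scd2, was at 16.3, 25.9 and 39.5 CPM in PSCs, 57.9, 74.6 and 123.1 in S100β-GFP+ cells and 31.9, 36.0 and 84.9 in NG2-dsRed+ cells. All PSC libraries lay below all S100β-GFP+ libraries, and overlapped the lower NG2-dsRed+ libraries. The log2 fold change of PSCs was -1.57 ± 0.21 against S100β-GFP+ cells (edgeR adjusted p = 3.78e-07) and -0.67 ± 0.20 against NG2-dsRed+ cells (edgeR adjusted p = 0.00722), and S100β-GFP+ cells were above NG2-dsRed+ cells by 0.90 ± 0.20 (edgeR adjusted p = 0.000785). The Scd2 level per length was 4.26 to 14.9 times that of Scd1 in PSC libraries, 1.28 to 3.10 times in S100β-GFP+ libraries and 1.24 to 3.36 times in NG2-dsRed+ libraries, so the PSC ratios did not overlap those of either other group.

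**Figure D4:**
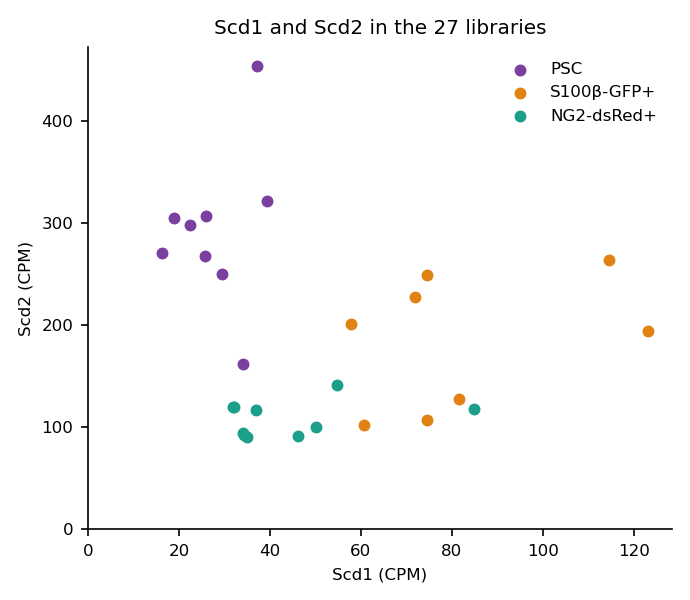
Scd1 and Scd2 levels (CPM, linear axes) in the 27 libraries, 1 point each. PSC libraries combine Scd2 at 161.5 to 453.8 CPM with Scd1 at 16.3 to 39.5 CPM, and S100β-GFP+ libraries have Scd1 at 57.9 to 123.1 CPM.

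Scd1 is also a gene of fat cells. Summed CPM of 6 adipocyte markers was 0.526 to 54.7 in PSCs, 4.66 to 115.6 in the S100β-GFP+ group and 7.12 to 27.2 in the NG2-dsRed+ group. Of the 4 that were tested, 3 were lower in PSCs than in S100β-GFP+ cells (Adipoq, Plin1 and Plin4), as Scd1 was. Against NG2-dsRed+ cells the list did not follow Scd1, with Cfd higher and Plin4 lower in PSCs, and Plin4 made up 12.9 of the mean sum of 13.3 CPM in NG2-dsRed+ cells. Cfd was uneven in PSCs, at 0 in 3 of 9 libraries, with a median of 0.175 CPM and a highest value of 45.1. Adipoq, which defines adipocytes, was at 0 in 5 of 9 PSC and 7 of 10 NG2-dsRed+ libraries, and at 1.55 to 42.6 CPM in the S100β-GFP+ libraries. The part of adipocyte, macrophage and fibroblast RNA in the Scd1, Mvd and Insig1 differences of PSCs from S100β-GFP+ cells was not tested.

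Fasn, fatty acid synthase, was at 43.6, 63.7 and 121.8 CPM in PSCs, 41.1, 58.6 and 103.9 in S100β-GFP+ cells and 28.3, 44.6 and 69.4 in NG2-dsRed+ cells. The groups overlapped, and the NG2-dsRed+ libraries were the lowest as a group. PSCs were above NG2-dsRed+ cells by 0.77 ± 0.20 on the log2 scale (edgeR adjusted p = 0.00281) and S100β-GFP+ cells by 0.60 ± 0.21 (edgeR adjusted p = 0.0275). The second call was lost without S100β-GFP+ library 1 or 14 (edgeR adjusted p = 0.0957 and 0.0612), and without libraries 14, 17 and 22 together (0.52, edgeR adjusted p = 0.106). PSCs and S100β-GFP+ cells differed by 0.17 (95% interval -0.27 to 0.61). With the share of counts on the 3 abundant transcripts as a term, that difference was 0.54 (edgeR adjusted p = 0.0101). Acaca, which makes malonyl-CoA for Fasn, passed in none, at 3.33, 16.0 and 27.6 CPM in PSCs, 10.6, 14.6 and 19.8 in S100β-GFP+ cells and 10.2, 13.9 and 18.0 in NG2-dsRed+ cells.

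Elovl6, which elongates palmitate, separated both GFP-positive populations from NG2-dsRed+ cells. It was at 7.18, 21.2 and 27.6 CPM in PSCs, 16.2, 24.8 and 34.9 in S100β-GFP+ cells and 4.03, 9.19 and 14.7 in NG2-dsRed+ cells. All S100β-GFP+ libraries lay above all NG2-dsRed+ libraries, and PSC library 18 alone at 7.18 CPM among the PSCs fell into the NG2-dsRed+ range. The log2 fold change against NG2-dsRed+ cells was 1.13 ± 0.22 in PSCs (edgeR adjusted p = 0.000101) and 1.39 ± 0.23 in S100β-GFP+ cells (edgeR adjusted p = 1.4e-05). Elovl1, which makes very long saturated chains, was the most abundant of the 32 genes per length in NG2-dsRed+ cells, at 20.1 ± 2.58 CPM per kilobase. Its largest difference, S100β-GFP+ above NG2-dsRed+ cells by 0.40 ± 0.16 on the log2 scale, had an edgeR adjusted p of 0.0551 and stayed above the threshold in 9 of 16 alternatives. Without PSC library 18 it was 0.43 (edgeR adjusted p = 0.00532).

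Fads1, the Δ5 desaturase of polyunsaturated fatty acids, was at 45.9, 67.3 and 189.2 CPM in PSCs, 26.7, 51.7 and 78.3 in S100β-GFP+ cells and 21.9, 31.1 and 62.8 in NG2-dsRed+ cells. The highest value was in PSC library 18. PSCs were above NG2-dsRed+ cells by 1.20 ± 0.24 on the log2 scale (edgeR adjusted p = 0.00018), and above S100β-GFP+ cells by 0.67 ± 0.26 (edgeR adjusted p = 0.0329). The second call was lost without PSC library 18 (0.45, edgeR adjusted p = 0.0817) and without S100β-GFP+ library 11, 22 or 27 (edgeR adjusted p = 0.0538, 0.0625 and 0.0728). S100β-GFP+ cells were above NG2-dsRed+ cells by 0.52 ± 0.25 (edgeR adjusted p = 0.11), and by 0.55 in the fit without PSC library 18 (edgeR adjusted p = 0.0322). Fads2, the Δ6 desaturase next to Fads1 on chromosome 19, did not follow it. It was at 2.20, 11.6 and 26.8 CPM in PSCs, 5.54, 9.67 and 19.2 in S100β-GFP+ cells and 7.92, 14.4 and 22.8 in NG2-dsRed+ cells, and passed in none.

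**Figure D5:**
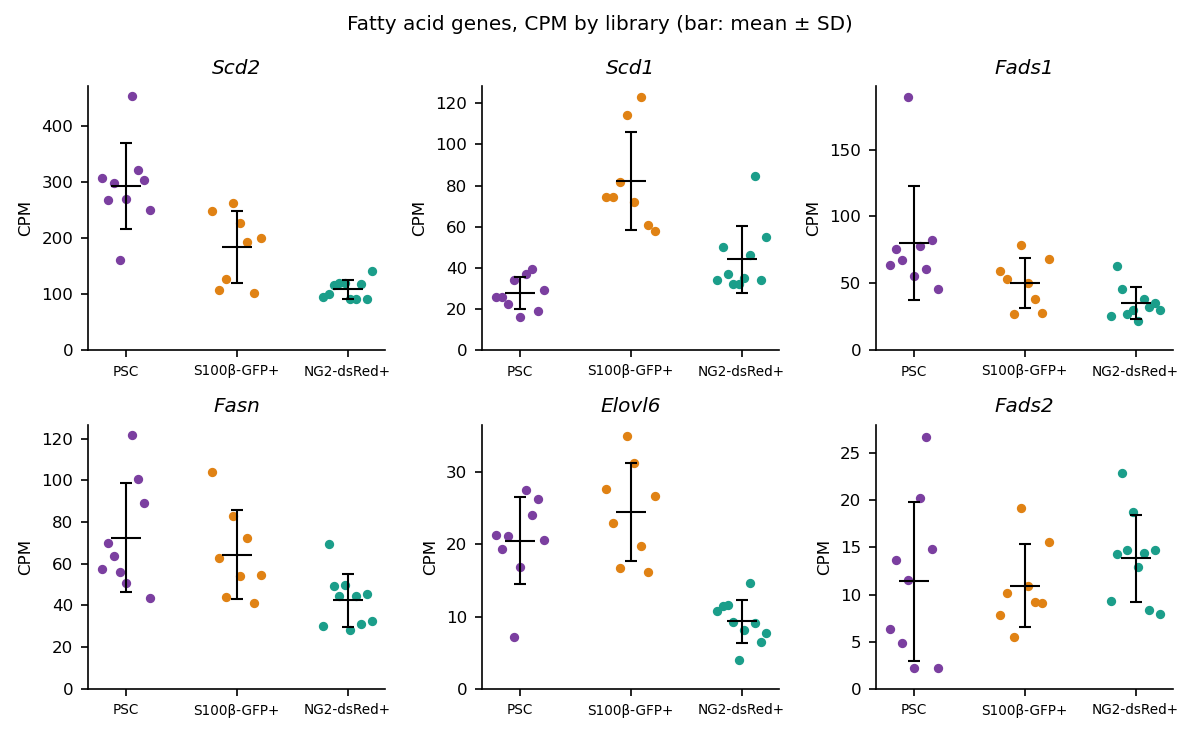
CPM of 6 fatty acid genes in every library, with the mean and SD (bars). Scd2 and Scd1 stand in opposite order between PSCs and S100β-GFP+ cells, Elovl6 is low in NG2-dsRed+ cells, and the highest Fads1 point, 189.2 CPM, is PSC library 18.

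Calls were most secure for a smaller number of genes. The alternatives numbered 16 in the 2 comparisons with S100β-GFP+ cells. In PSCs against NG2-dsRed+ cells they numbered 8, without the fits that left out single S100β-GFP+ libraries in turn. Under every alternative run, 5 of the 7 genes kept their call in PSCs against S100β-GFP+ cells (Mvd, Scap, Insig1, Scd1 and Scd2), 9 of 12 in PSCs against NG2-dsRed+ cells (Pmvk, Lss, Scap, Stard4, Fasn, Elovl6, Scd1, Scd2 and Fads1) and 7 of 11 in S100β-GFP+ against NG2-dsRed+ cells (Mvd, Lss, Ebp, Insig1, Stard4, Elovl6 and Scd1).

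Myelin genes and cell cycle genes are given here beside these results. Summed CPM of the 7 myelin genes was 1367 to 2497 in PSCs, 911 to 2962 in S100β-GFP+ cells and 154 to 737 in NG2-dsRed+ cells, so the pattern of low NG2-dsRed+ values seen for Lss, Elovl6 and Fasn was also that of the myelin list. Summed CPM of 4 cycling markers was 151 to 835 in PSCs, 49.4 to 418 in S100β-GFP+ cells and 12.1 to 189 in NG2-dsRed+ cells. The part of either in the results above was not tested.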

How the data were processed

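RNA of FACS-sorted cells was amplified from low input (SMART-Seq v4) and sequenced. Per the labels and the study's methods, the authors trimmed reads, aligned them with HISAT2 to GRCm38, used HTSeq to count reads by gene, and deposited a table of raw counts. Tool versions, annotation and strand setting were not given in the sources used here. Of 36 libraries in the labels, 27 have a column and were analysed, and 0 other columns of values were left out. Groups came from the labels. Within groups, 109 pairs of libraries were compared and 0 were identical (lowest chi-square per degree of freedom 8.097). The label ages run on from sample to sample and were not used.

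Identifiers were matched to GENCODE M21 (52489 of 52636). Genes were filtered with filterByExpr (minimum count 10), normalised by TMM, and tested in 1 model of 3 groups with edgeR 4.0.16 (quasi-likelihood test, R 4.3.3) with Benjamini-Hochberg adjustment over 15330 genes. The script was tested on simulated data. Depth limits the precision of low genes, and p-values cover the spread between single mice. Alternatives used DESeq2 1.42.0, limma 3.58.1, no filter, a covariate and left-out libraries. All 32 genes could be named, with the 2 largest changes per comparison of 3 further pathway lists. Genes and lists were chosen with earlier results of these data known. Of the Schwann cell lineage markers first listed, 1 is not reported here.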

Additional observations from a re-analysis of the deposited data

Results flagged for a closer look

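In 96 groups of values (32 genes in 3 populations) the highest or lowest library was compared with its neighbours by Dixon's criterion, and 11 stood apart. Chance alone marks about 1 group in 20 where values are normally distributed. Normality was not tested here and the 32 genes share their libraries, so that rate is only a guide.

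Of the 11 values, 7 were from PSC library 18. It was the highest PSC library for Acat2 (24.7 CPM, next 16.2), Mvk (31.7, next 15.0), Nsdhl (30.1, next 16.6), Ebp (52.2, next 31.0), Elovl1 (121 CPM, next 70.7) and Fads1 (189 CPM, next 82.3), and the lowest for Hmgcs1 (6.66 CPM, next 30.9). PSC library 23 had Srebf2 at 143 CPM, above a next value of 84.7. S100β-GFP+ library 11 had Pmvk at 23.5 CPM, above 14.0. NG2-dsRed+ library 7 had Fasn at 69.4 CPM, above the next at 50 CPM, and NG2-dsRed+ library 28 had Scd1 at 84.9 CPM, above 54.8.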

How the results depend on the processing

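No called gene of the set changed direction under any alternative run. Without S100β-GFP+ libraries 14, 17 and 22, known from an earlier analysis of these data, 7 genes of the set were called between S100β-GFP+ and NG2-dsRed+ cells in place of 11 (Hsd17b7, Sc5d, Fasn and Scd2 were lost). With no filter, 44705 genes entered, and 16556 genes were called in PSCs against S100β-GFP+ cells (3907 higher, 12649 lower) and 10586 in S100β-GFP+ against NG2-dsRed+ cells (8194 higher, 2392 lower), in place of 7198 (3511 and 3687) and 5099 (2771 and 2328), while the set kept 7 and 11 calls. Leaving out each S100β-GFP+ library in turn gave 7 to 8 and 9 to 15 calls in the set and 6825 to 7158 and 4617 to 5274 over all genes. The fit without PSC library 18, chosen after seeing the data, gave 7, 14 and 15 calls in the set, in place of 7, 12 and 11. Acat2 and Dhcr7 in PSCs against NG2-dsRed+ cells lost their calls with no filter (edgeR adjusted p = 0.0679 and 0.0544) and in limma-voom (0.064 and 0.0785). Acat2 also lost its call with the share of the 3 abundant transcripts as a term (edgeR adjusted p = 0.0603). The cause of these changes was not tested. Each library number occurs once, and the labels do not say which libraries of different groups came from the same mouse. No paired analysis was therefore possible, and the model does not account for mice that groups may share.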

Other observations

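Genes around the 2 pathways were taken from 3 further lists. Of 22 genes of SREBP processing and of sterol uptake, efflux and storage, 3 were higher and 12 lower in PSCs than in S100β-GFP+ cells, where 22.9% and 24.1% of all genes were. In PSCs against NG2-dsRed+ cells 3 were higher and 9 lower (20.9% and 23.1% of all genes), and in S100β-GFP+ against NG2-dsRed+ cells 11 were higher and 2 lower (18.1% and 15.2%). Abcg1, a sterol exporter, was at 0 to 2.57 CPM in PSCs, 8.99 to 36.6 in S100β-GFP+ cells and 6.93 to 19.0 in NG2-dsRed+ cells. PSCs did not overlap either group, with log2 fold changes of -4.81 and -3.78 (edgeR adjusted p = 2.15e-09 and 1.07e-07). Cyp27a1, which makes 27-hydroxycholesterol, was at 0.202 to 2.46, 9.63 to 25.6 and 4.68 to 13.1 CPM in the 3 groups, again with PSCs below both. Nr1h3, which encodes the sterol sensor LXRα, was highest in NG2-dsRed+ cells at 22.4 to 61.8 CPM, against 0.209 to 13.5 in PSCs and 2.44 to 14.2 in S100β-GFP+ cells. Macrophages also express Abcg1 and Nr1h3. The macrophage marker Adgre1 was at 0 to 1.43 CPM in PSCs, 20.9 to 175.1 in S100β-GFP+ cells and 0 to 2.89 in NG2-dsRed+ cells. The part of macrophage RNA in these differences was not tested.

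Of 25 genes of acetyl-CoA supply and fatty acid elongation and activation, 19 were tested. In PSCs against S100β-GFP+ cells 3 were higher and 7 lower (52.6% called, against 47.0% of all genes), in PSCs against NG2-dsRed+ cells 6 were higher and 6 lower (63.2% against 44.0%), and in S100β-GFP+ against NG2-dsRed+ cells 6 were higher and 2 lower (42.1% against 33.3%). Elovl2, which elongates polyunsaturated fatty acids, was at 0 to 7.20 CPM in PSCs, 0 to 1.89 in S100β-GFP+ cells and 0 to 0.175 in NG2-dsRed+ cells, with PSCs above S100β-GFP+ cells by 2.53 ± 0.62 on the log2 scale (edgeR adjusted p = 0.00121). Elovl7, another elongase, was highest in S100β-GFP+ cells at 3.33 to 12.7 CPM, above all NG2-dsRed+ libraries at 0 to 2.27. Hacd1, a dehydratase of the elongation cycle, was lower in PSCs, at 4.86 to 15.2 CPM, than in every library of the other groups. Fads3 was highest in NG2-dsRed+ cells, at 38.2 to 80.6 CPM, with no overlap with PSCs at 3.94 to 28.0 or with S100β-GFP+ cells at 4.98 to 25.8. Of 10 genes of isoprenoid and sterol synthesis 9 were tested, and Ggps1, which makes the geranylgeranyl donor, was higher in every PSC library (32.2 to 55.0 CPM) than in every S100β-GFP+ library (16.0 to 32.1 CPM).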
